A study of Homo sapiens with 24 samples.

Results

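Cells given insulin-like growth factor (IGF) were compared with cells given epidermal growth factor (EGF), array against array, in A2780, a human ovarian cancer cell line. The comparison used 8 of the 24 HT-HG_U133A arrays of the study, namely the 4 labelled as IGF treated and the 4 labelled as EGF treated. Each IGF array was set against the EGF array of the same line and the same experiment, which gave 4 pairs. The lines were A2780 cells transfected with pcDNA, the empty vector, and A2780 cells expressing Rab25, a small GTPase of endosome recycling. Each line was a single transfected line, so a difference between the lines includes anything else that set them apart. Cells of all 8 arrays had been starved of serum for 8 h and then received 10 ng/ml of either factor, and the labels do not say which IGF was used. The labels conflict on the exposure: by the treatment protocol it lasted 8 h in the first experiment and 24 h in the second, and by the source names 24 h throughout. Exposure time and experiment therefore cannot be told apart. The other arrays of the study (serum-starved, TGF beta and serum) did not enter the main fits of these 8 arrays. Some or all of them entered alternative fits, among them the fit of all 24 arrays that gave the BCL6 call below. Starved levels are given beside some genes as a description only.

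IGF binds the IGF1 receptor, a receptor tyrosine kinase that passes its signal through the docking proteins IRS1 and IRS2 to PI3K and AKT. AKT keeps FOXO transcription factors out of the nucleus, so genes that FOXO factors turn on in unfed cells are known to be lowered by insulin and IGF. EGF binds EGFR, which signals strongly through RAS and ERK, and ERK output includes early transcription factors such as EGR1 and FOS and feedback inhibitors such as the Sprouty and DUSP proteins. Both receptors reach mTORC1, which raises ATF4 and ribosome production. The question of the comparison is where the transcripts left by these related signals differ.

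The transfected gene matched the labels, with RAB25 at 5.02 to 5.55 on the log2 scale in the 4 pcDNA arrays and at 8.25 to 8.80 in the 4 Rab25 arrays. The median level over genes was 8.11 to 8.18 in EGF arrays and 8.08 to 8.13 in IGF arrays, and it was lower with IGF in all 4 pairs. Of the ovarian epithelial genes, KRT18, a keratin, had a mean level of 13.89 over the 8 arrays, whereas the lowest of the 15, MUC16, lay at 4.95 and 10 of the 15 lay under 7. The mean level of 17 blood cell markers was 5.63 to 5.75 in EGF arrays and 5.72 to 5.86 in IGF arrays, and 15 of them lay under 7. The mean over 11 endothelial markers was 7.20 to 7.47 with EGF and 6.98 to 7.46 with IGF, and over 12 stromal markers 7.07 to 7.23 and 7.0 to 7.30. These means hide bright members. Of the 11 endothelial markers 7 lay under 7, but TIE1 had a mean level of 11.27 over the 8 arrays and CDH5 one of 10.74. Of the 12 stromal markers 7 lay under 7, but DCN lay at 12.12. The other probe sets of DCN lay at 4.90 to 5.88. The deposited values have no true zero, and levels under 7 are treated here as close to background. The gap between the 3′ and 5′ probe sets for actin, a sign of RNA quality, differed between IGF and EGF by -0.12 and 0.16 in the pcDNA pairs and by -0.06 and -0.08 in the Rab25 pairs. The part of these technical values in the results was not tested.

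The profiles left by IGF and EGF were close. By limma with the pair as a block, 0 of 11940 genes (0%) passed a Benjamini-Hochberg adjusted p of 0.05, and the lowest adjusted p was 0.197. At an unadjusted p under 0.05 stood 1183 genes, of which 438 were higher with IGF (3.67%) and 745 lower (6.24%). The sign of the difference was positive in all 4 pairs for 898 genes (7.52%) and negative in all 4 for 1303 genes (10.9%). The 95% interval of the difference lay within 2-fold for 11933 genes and within 1.5-fold for 11848 genes, so large differences in either direction lay outside the intervals of nearly all genes. A prior variance that follows the level and resists outliers gave 17 calls (0.142%), 9 higher and 8 lower with IGF. Those genes were CHAC1, DDIT4, ATF3, TUFT1, LCP1, ASNS, EFNB2, DDIT3 and SLC3A2 on the higher side and RIN2, IRS2, RESF1, ITGB3, MTSS1, CACNA1A, TRIB1 and SPRY2 on the lower side. Since the paired test called none, genes are described below by their values in the pairs, and lists by their counts at the unadjusted threshold.

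The surplus of lower genes rested on the scaling. Of the genes at an unadjusted p under 0.05, 37.0% were higher with IGF in the deposited values, 47.9% after quantile normalization and 81.2% after centring each array on its median. Centring moved the median difference of all genes from -0.0018 to 0.0534 on the log2 scale. After it 1260 of 11940 genes were higher and 291 lower at an unadjusted p under 0.05. List counts after centring are to be read beside these numbers. The pairs also shared little over genes as a whole, with correlations of the differences across genes, which are not independent replicates, from -0.03 to 0.27. The number at an unadjusted p under 0.05 was 743 without the Rab25 pair of experiment 1. In bulk RNA, fewer cells of a kind and less RNA per cell cannot be told apart.

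IRS2, the docking protein that couples the IGF1 and insulin receptors to PI3K, was lower with IGF than with EGF in every pair. Its level in EGF arrays was 11.79 and 11.16 in pcDNA cells (experiments 1 and 2) and 11.67 and 11.18 in Rab25 cells. In IGF arrays it was 11.55 and 10.77 in pcDNA cells and 11.19 and 10.77 in Rab25 cells. The ranges of the groups overlapped because experiment 1 lay above experiment 2, but within pairs the IGF array was always the lower one. The log2 difference was -0.38 (SE 0.06, 95% interval -0.51 to -0.24), a 1.30-fold lower level (limma, adjusted p = 0.293). Its other probe set gave -0.36. Starved cells had 11.91 ± 0.06 (SD, n = 8), a mean above each of the 8 treated arrays.

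IGF1R, the receptor itself, followed the same direction with a smaller and less even difference. In pcDNA cells its level was 9.97 and 9.93 with EGF and 9.77 and 9.79 with IGF. In Rab25 cells it was 9.52 and 9.26 with EGF and 8.91 and 8.99 with IGF. The IGF array was the lower one in all 4 pairs, by 0.15 at the least and by 0.61 at the most. The mean log2 difference was -0.30 (SE 0.08, limma, adjusted p = 0.407). A second probe set gave -0.24, and the remaining one, at a level of 5.47, gave 0.06.

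CXCR4, the receptor of the chemokine CXCL12, had the second largest difference of all genes. With EGF its level was 9.03 and 6.98 in pcDNA cells and 9.43 and 7.49 in Rab25 cells, and with IGF 8.06, 6.70, 7.96 and 6.58 in the same order. Experiment 2 was low under both factors, and the smallest difference, -0.28, fell in the pcDNA pair where the EGF level was already under 7. The mean log2 difference was -0.91 (SE 0.16), a 1.88-fold lower level with IGF (limma, adjusted p = 0.305). Its other probe sets gave -0.47 and -0.55. Starved cells stood higher, at 9.46 ± 0.76 (SD, n = 8).

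EGR1, an immediate-early factor that ERK induces, did not separate the factors. Its level was 5.78 and 6.10 with EGF and 5.80 and 5.73 with IGF in pcDNA cells. In Rab25 cells it was 7.76 and 8.62 with EGF and 7.55 and 9.13 with IGF, so the lines differed far more than the treatments. The log2 differences of the pairs were 0.02, -0.36, -0.21 and 0.51, with a mean of -0.01 (SE 0.13, 95% interval -0.31 to 0.29), whose sign turned with quantile normalization (0.01) and centring (0.05). In an exact sign-flip permutation test over the 4 pairs, 2-sided, the p was 0.125 for each of IRS2, IGF1R and CXCR4, which is the smallest p that 4 pairs allow, and 1 for EGR1. The promoter of EGR1 shows the known serum response elements, CArG boxes, which 1.29% of 35116 RefSeq promoters of this length hold. A stretch of 100 bases, at -151 to -52 from the start site, is shown 5′ to 3′ with its 2 CArG boxes in capitals. It lies at chr5:138465328-138465427 of GRCh38.p14, plus strand.
EGR1: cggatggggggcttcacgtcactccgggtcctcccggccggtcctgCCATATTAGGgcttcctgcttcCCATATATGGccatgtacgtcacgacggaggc

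**Figure D1:**
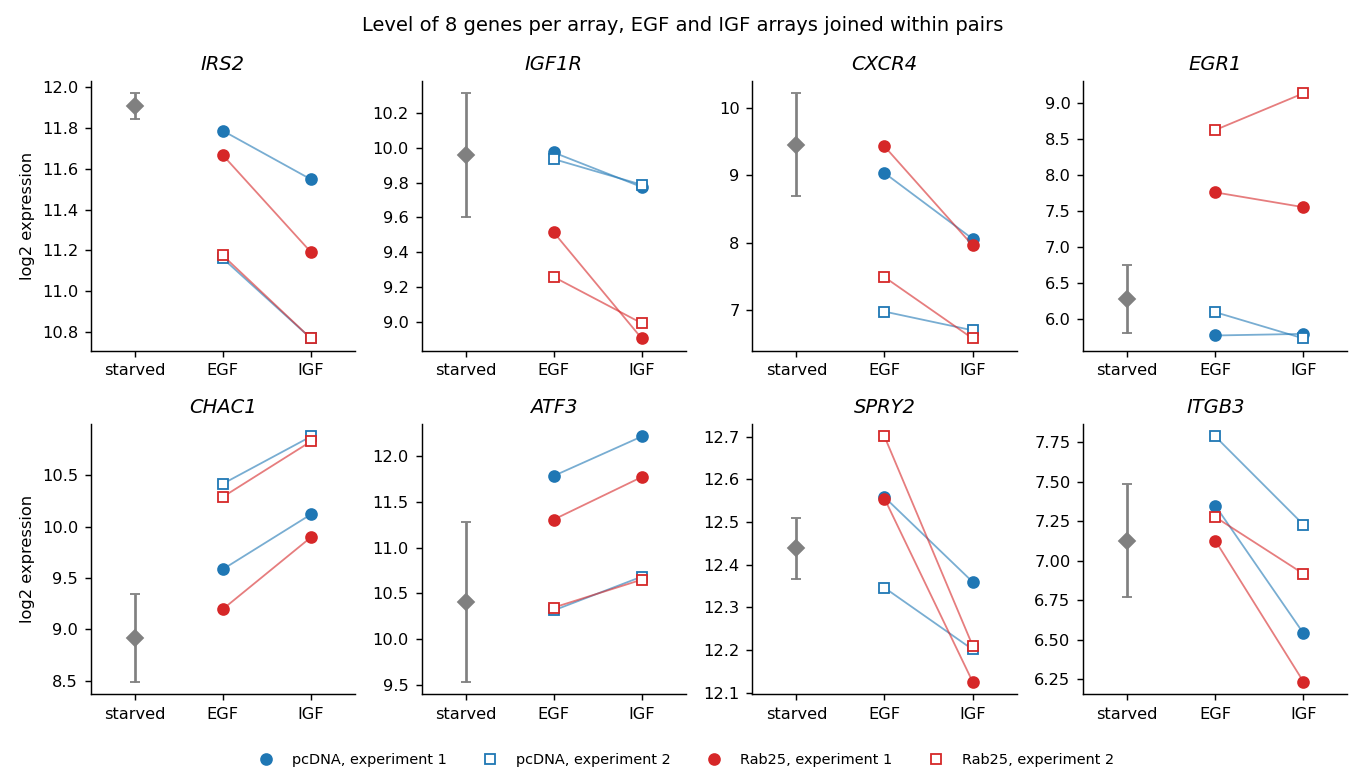
Log2 level of 8 genes in each EGF and IGF array, joined within pairs (blue pcDNA, red Rab25, filled experiment 1, open experiment 2), with the mean and SD of 8 starved arrays in grey. The lines of IRS2, IGF1R, CXCR4, SPRY2 and ITGB3 run down from EGF to IGF in all 4 pairs, those of CHAC1 and ATF3 run up, and those of EGR1 go both ways.

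Among the 22 genes of the IGF axis, 2 were higher and 4 lower with IGF at an unadjusted p under 0.05, against 3.67% and 6.24% of all genes. Besides IRS2 and IGF1R, the binding protein IGFBP7 was lower (log2 difference -0.20, SE 0.07). The members on the higher side were IRS4, a docking protein close to background at 5.26 with EGF (0.17, SE 0.06), and IGFBP3, the main carrier of IGF in blood, at 0.48 (SE 0.09). Its level was 7.74, 7.47, 7.09 and 7.60 with EGF and 7.94, 8.08, 7.81 and 8.00 with IGF, so every IGF array lay above every EGF array. A second IGFBP3 probe set, at a level of 6.56, gave 0.03. IRS1, the other docking protein, was lower only in the pairs of experiment 1 (-0.42 and -0.47) and near even in experiment 2 (0.01 and 0.06). INSR lay at a mean of 5.60 with EGF and 5.50 with IGF, close to background. The median of the 22 genes was -0.06, beside -0.0018 over all genes, and -0.01 after centring. The counts were 2 higher and 2 lower after centring, and 1 higher and 2 lower without the Rab25 pair of experiment 1.

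Of 39 measured genes of FOXO and growth factor withdrawal, 17 were lower and 2 higher with IGF at an unadjusted p under 0.05, against 6.24% and 3.67% of all genes. In all 4 pairs 16 were lower and 2 higher, against 10.9% and 7.52% of all genes, and by limma none passed after adjustment. The median difference was -0.12, and it was negative in each pair, at -0.10 and -0.12 in pcDNA cells and -0.18 and -0.08 in Rab25 cells. The count of 17 was 11 without the Rab25 pair of experiment 1, 10 after centring on array medians and 15 after quantile normalization. Centring left 291 of all 11940 genes lower. The list holds IRS2 and IGF1R, described above, and shares members with the lists of cell cycle inhibitors and p53 targets.

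CCNG2, the cyclin G2 gene that FOXO factors switch on in quiescent cells, was at 10.83 and 9.33 with EGF and 10.68 and 8.66 with IGF in pcDNA cells. In Rab25 cells it was at 10.81 and 9.08 with EGF and 10.48 and 8.35 with IGF. The difference was larger in experiment 2 (-0.67 and -0.73) than in experiment 1 (-0.15 and -0.33), and the mean was -0.47 (SE 0.10, limma, adjusted p = 0.362). KLF9, a Krüppel-like repressor, had a like pattern with -0.15, -0.62, -0.47 and -0.69 in the order of the pairs above and a mean of -0.48 (SE 0.09). Its 2 other probe sets gave 0.04 and 0.10, so the KLF9 value rests on the brightest of 3. CITED2, a regulator of CBP and p300, had -0.20, -0.22, -0.32 and -0.31 and a second probe set at -0.29. HBP1, a repressor of cell cycle genes, had a mean difference of -0.39 (SE 0.09), and the PI3K inhibitor PIK3IP1 one of -0.24 (SE 0.07). The thioredoxin inhibitor TXNIP was at -0.23 (SE 0.09) and the antiproliferative gene BTG1 at -0.18 (SE 0.08), and neither was lower in the pcDNA pair of experiment 1 by more than 0.01. On the other side, ERBB3 and GADD45A were the members higher at an unadjusted p under 0.05, at 0.19 and 0.17. ERBB3 lay at a background level of 5.26 in EGF arrays. BCL6, also of this list, had its largest difference in either direction, at 0.67 (SE 0.32), but did not reach that threshold. It had -0.08 and -0.29 in experiment 1 and 1.24 and 1.82 in experiment 2.

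The canonical FOXO element TGTTTAC was searched on both strands from 250 bases before to 50 bases after RefSeq start sites. It stood in 3.42% of all 35116 promoters, in 3.87% of the 9593 measured genes with a promoter, and in 7 of the 35 list members that had one. Those were HBP1, TXNIP, BTG1 and PIK3IP1, each lower at an unadjusted p under 0.05, and MXI1 (-0.16), BCL2L11 (-0.05) and FOXO4 (0.02), which were not. The 3 stretches below, examples picked from the first of these after their values were seen, are 100 bases of GRCh38.p14, 5′ to 3′ on the gene's strand, with the element in capitals in either orientation. HBP1 lies at chr7:107168784-107168883 (plus strand), TXNIP at chr1:145996650-145996749 (minus strand) and BTG1 at chr12:92145997-92146096 (minus strand). The match is a description of letters and not of binding.
HBP1: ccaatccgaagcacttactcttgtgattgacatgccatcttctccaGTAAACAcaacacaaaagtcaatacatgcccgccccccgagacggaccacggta
TXNIP: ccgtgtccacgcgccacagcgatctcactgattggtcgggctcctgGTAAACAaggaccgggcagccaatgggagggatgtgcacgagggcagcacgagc
BTG1: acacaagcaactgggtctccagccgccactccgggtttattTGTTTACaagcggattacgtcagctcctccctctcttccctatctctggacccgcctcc

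Of 36 measured genes of the ATF4 and amino acid response, 11 were higher and 0 lower with IGF at an unadjusted p under 0.05, against 3.67% and 6.24% of all genes. In all 4 pairs 16 were higher and 0 lower, against 7.52% and 10.9% of all genes. By limma none passed after adjustment. The median difference was 0.11, with 0.14 and 0.03 in the pcDNA pairs and 0.23 and 0.06 in the Rab25 pairs, so it was larger in experiment 1. Quantile normalization left the count at 11, centring gave 15, and leaving out a pair gave 8 to 14. Centring also raised the count over all 11940 genes, from 438 to 1260 higher.

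CHAC1, a glutathione-degrading enzyme and a sensitive ATF4 target, had the lowest p of all genes. Its level was 9.58 and 10.42 with EGF and 10.12 and 10.88 with IGF in pcDNA cells, and 9.20 and 10.29 with EGF and 9.90 and 10.83 with IGF in Rab25 cells. The IGF array was higher in each pair, by 0.53, 0.46, 0.70 and 0.54. The mean of 0.56 (SE 0.06, 95% interval 0.42 to 0.70) is a 1.47-fold higher level (limma, adjusted p = 0.197). Starved cells had 8.92 ± 0.43 (SD, n = 8), a mean below each of the 8 arrays.

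DDIT4, which restrains mTORC1, was 0.32 higher (SE 0.05), with 0.30 and 0.26 in pcDNA and 0.41 and 0.33 in Rab25 pairs, and starved cells had 11.66 ± 1.00 (SD, n = 8). ATF3, a stress-induced partner of ATF4, was counted among the immediate-early factors and had 0.43, 0.37, 0.46 and 0.30 in the 4 pairs. The transcription factor DDIT3 was 0.32 higher (SE 0.07) and the amino acid transporter chain SLC3A2 0.31 higher (SE 0.07). Its partner SLC7A5, which imports leucine, had 0.40 and 0.62 in experiment 1 and 0.08 and 0.16 in experiment 2. ASNS, which makes asparagine, was at 12.66, 12.21, 12.61 and 12.28 with EGF and at 13.05, 12.37, 13.10 and 12.48 with IGF, again with the wider gaps in experiment 1. The serine synthesis enzyme PSAT1 had a mean of 0.25 (SE 0.08), and CEBPG, a dimer partner of ATF4, one of 0.21 (SE 0.06). The ATF4 transcript itself, which is controlled mainly in translation, differed by 0.06 (SE 0.05).

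The ATF4 element TGATGNAA (N is any base), searched on both strands, stood in 3.62% of all promoters and 3.45% of measured genes with a promoter. It stood in 10 of the 30 list members with a promoter, and also in that of ATF3. Of the 10, CHAC1, ASNS, SLC3A2 and CEBPG were higher at an unadjusted limma p under 0.05. The others, MARS1 (0.12), SLC1A5 (0.12), GARS1 (0.10), SLC7A1 (0.09), SLC1A4 (0.08) and CARS1 (0.08), did not reach it. The element was not limited to genes higher with IGF: of the other named genes it stood in ARID5B and FRMD4A, both at -0.33 and lower in all 4 pairs, and in CALCRL, at 0.30. The 4 stretches below are examples picked after their values were seen, with the element in capitals in either orientation (GRCh38.p14, gene's strand). CHAC1 lies at chr15:40953221-40953320, ATF3 at chr1:212565170-212565269, CEBPG at chr19:33374013-33374112 (all plus strand) and ASNS at chr7:97872423-97872522 (minus strand).
CHAC1: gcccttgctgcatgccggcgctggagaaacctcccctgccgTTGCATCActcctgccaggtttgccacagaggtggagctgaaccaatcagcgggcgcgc
ATF3: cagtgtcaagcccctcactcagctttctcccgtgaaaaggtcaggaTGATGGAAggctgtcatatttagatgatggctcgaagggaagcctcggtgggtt
CEBPG: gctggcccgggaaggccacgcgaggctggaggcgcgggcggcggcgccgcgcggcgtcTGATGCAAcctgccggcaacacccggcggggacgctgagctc
ASNS: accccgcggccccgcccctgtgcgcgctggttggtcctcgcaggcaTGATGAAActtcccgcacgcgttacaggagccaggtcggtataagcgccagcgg

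Of 32 genes of ribosome biogenesis and MYC targets, 7 were higher and 0 lower with IGF at an unadjusted p under 0.05, against 3.67% and 6.24% of all genes. In all 4 pairs 12 were higher and 0 lower, against 7.52% and 10.9% of all genes. The median was 0.08, positive in each pair (0.09, 0.05, 0.14 and 0.06). The count of 7 was 3 without the pcDNA pair of experiment 1, 3 without the Rab25 pair of experiment 1, and was 14 after centring. Of all 11940 genes 1260 were higher after centring. The nucleolar helicase DDX21 had a mean difference of 0.19 (SE 0.06) with 0.21, 0.11, 0.14 and 0.30 in the pairs, and the rRNA methyltransferase NOP2 one of 0.20 (SE 0.06). The nucleolar protein NOP16 was at 0.16 (SE 0.05) and the spermidine synthase SRM at 0.19 (SE 0.07). The E-box CACGTG, to which MYC binds, stood in 12 of the 28 list members with a promoter. It stood in 11.7% of measured genes with a promoter. The 19 aminoacyl-tRNA synthetases and cofactors had 0 members at an unadjusted p under 0.05 by limma in either direction, with a median of 0.04, but 4 higher and 0 lower after centring. The 21 genes of the unfolded protein response had 0 by limma under both scalings, with a median of 0.02 as deposited.

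**Figure D2:**
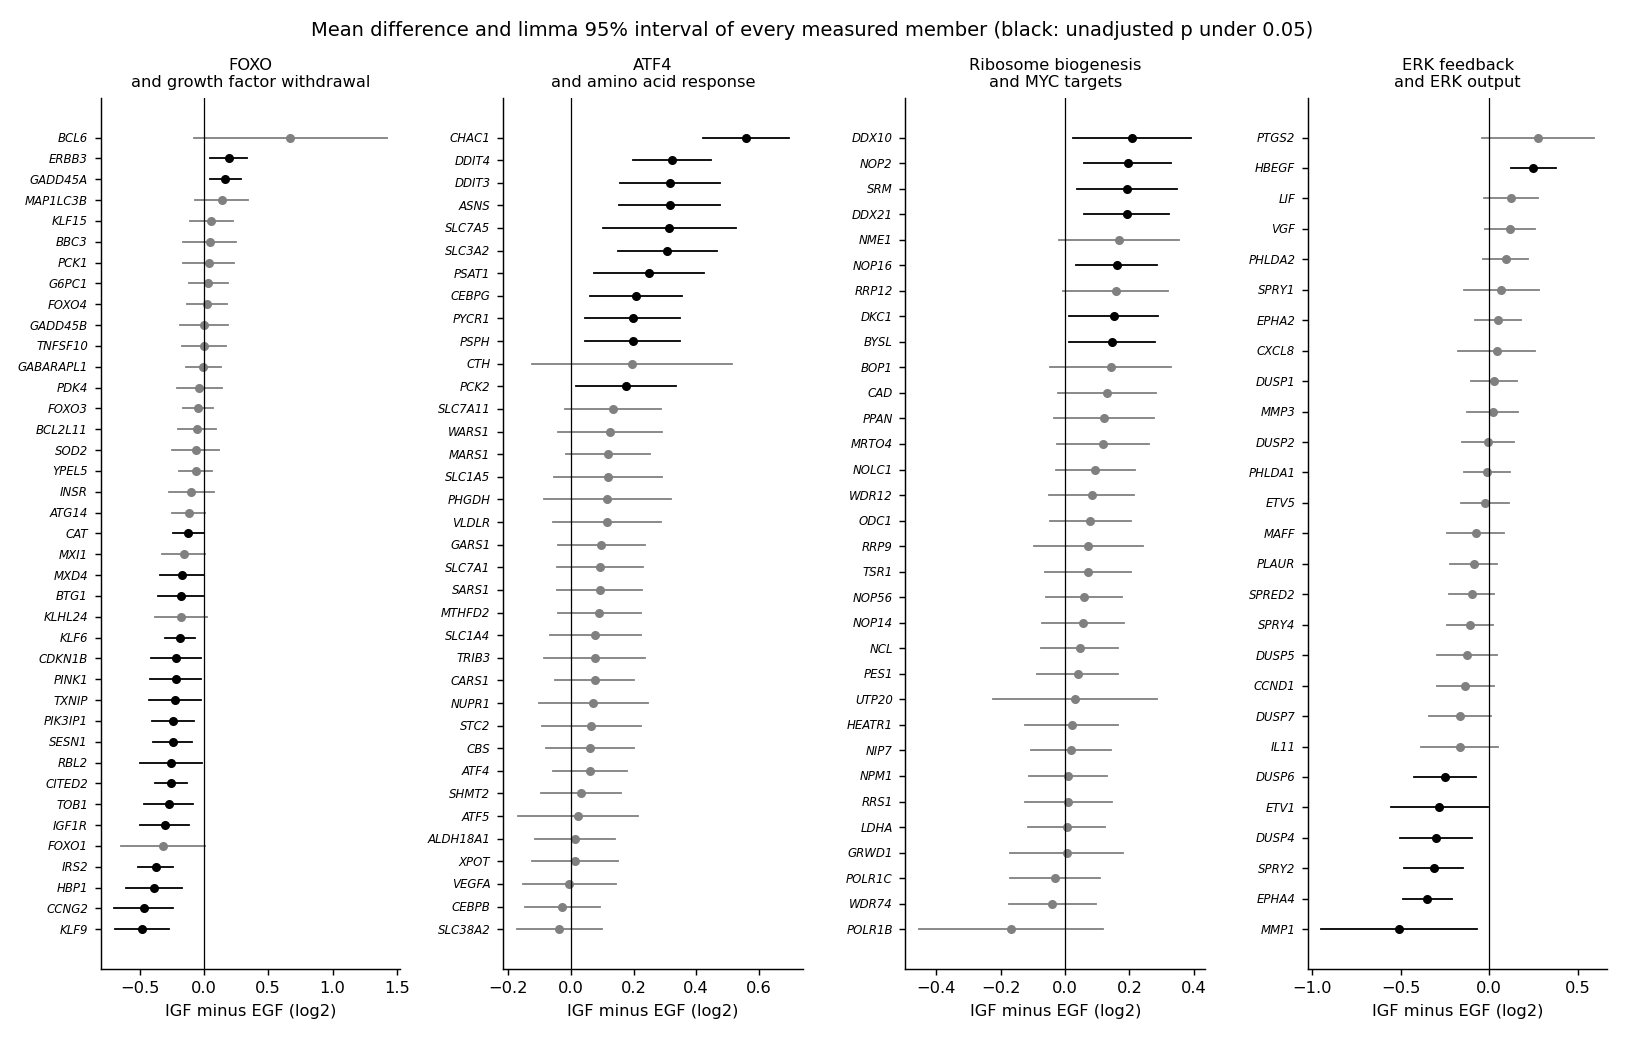
Mean IGF minus EGF difference (log2) and its 95% limma interval for every measured gene of 4 lists, in the deposited scaling and ordered by size, with members at an unadjusted p under 0.05 in black. The black members lie mostly left of 0 for FOXO (17 of 39) and ERK output (6 of 27) and only right of 0 for ATF4 (11 of 36) and ribosome genes (7 of 32).

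Among 26 receptors, ligands and regulators of the ERBB family, 3 were higher and 0 lower with IGF at an unadjusted p under 0.05, against 3.67% and 6.24% of all genes, with a median of 0.01. After centring 5 were higher and 0 lower, beside 1260 and 291 of all 11940 genes. EGFR itself, at a mean of 13.30 with EGF and 13.27 with IGF, differed by -0.02 (SE 0.06). HBEGF, a ligand of EGFR, was higher with IGF by 0.17, 0.30, 0.22 and 0.31 (mean 0.25, SE 0.05), and a second HBEGF probe set gave 0.31. The ligand NRG1 had 0.48 and 1.00 in experiment 1 but 0.10 and 0.02 in experiment 2.

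Of 27 genes of ERK feedback and ERK output, 6 were lower and 1 higher at an unadjusted p under 0.05, against 6.24% and 3.67% of all genes, and the median was -0.08. In all 4 pairs 8 were lower and 4 higher, against 10.9% and 7.52% of all genes. The member higher at the unadjusted threshold was HBEGF, described above, at 0.25 (SE 0.05) and higher in all 4 pairs. After centring the counts were even, 5 lower and 5 higher, with a median of -0.02. Of all 11940 genes 291 were lower and 1260 higher after centring. SPRY2, a Sprouty inhibitor of receptor tyrosine kinase signalling, was at 12.56 and 12.35 with EGF and 12.36 and 12.20 with IGF in pcDNA cells. In Rab25 cells it was at 12.56 and 12.70 with EGF and at 12.13 and 12.21 with IGF. The 4 IGF arrays spanned 12.13 to 12.36 and the EGF arrays 12.35 to 12.70, so the groups all but separated, with starved cells between them in the mean at 12.44 ± 0.07 (SD, n = 8). The mean log2 difference was -0.32 (SE 0.07, limma, adjusted p = 0.383). The ephrin receptor EPHA4 was lower by 0.35, 0.33, 0.48 and 0.24 (mean -0.35, SE 0.06). The ERK phosphatases DUSP6 and DUSP4 had mean differences of -0.25 (SE 0.07) and -0.30 (SE 0.09), and DUSP4 was level in the Rab25 pair of experiment 2 (0.01). DUSP6 was added to the named members after its value was seen.

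Of 24 immediate-early factors, 2 were higher and 4 lower at an unadjusted p under 0.05, against 3.67% and 6.24% of all genes. After centring 6 were higher and 2 lower, beside 1260 and 291 of all 11940 genes. The median lay near 0 and its sign depended on the scaling (-0.01 as deposited, 0.01 after quantile normalization, 0.04 after centring). FOS, the AP-1 partner of JUN, was lower by 0.17, 0.30, 0.65 and 0.31 (mean -0.36, SE 0.08). Its levels, 6.74 to 7.10 with EGF and 6.45 to 6.79 with IGF, lay close to background. KLF2 and IER5 had differences of -0.22 (SE 0.07) and -0.18 (SE 0.06). Of 31 members of the PI3K, AKT and mTOR pathway, 1 was higher (DDIT4) and 2 lower (PIK3IP1 and the kinase SGK1 at -0.26, SE 0.08), close to the 3.67% and 6.24% of all genes.

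**Figure D3:**
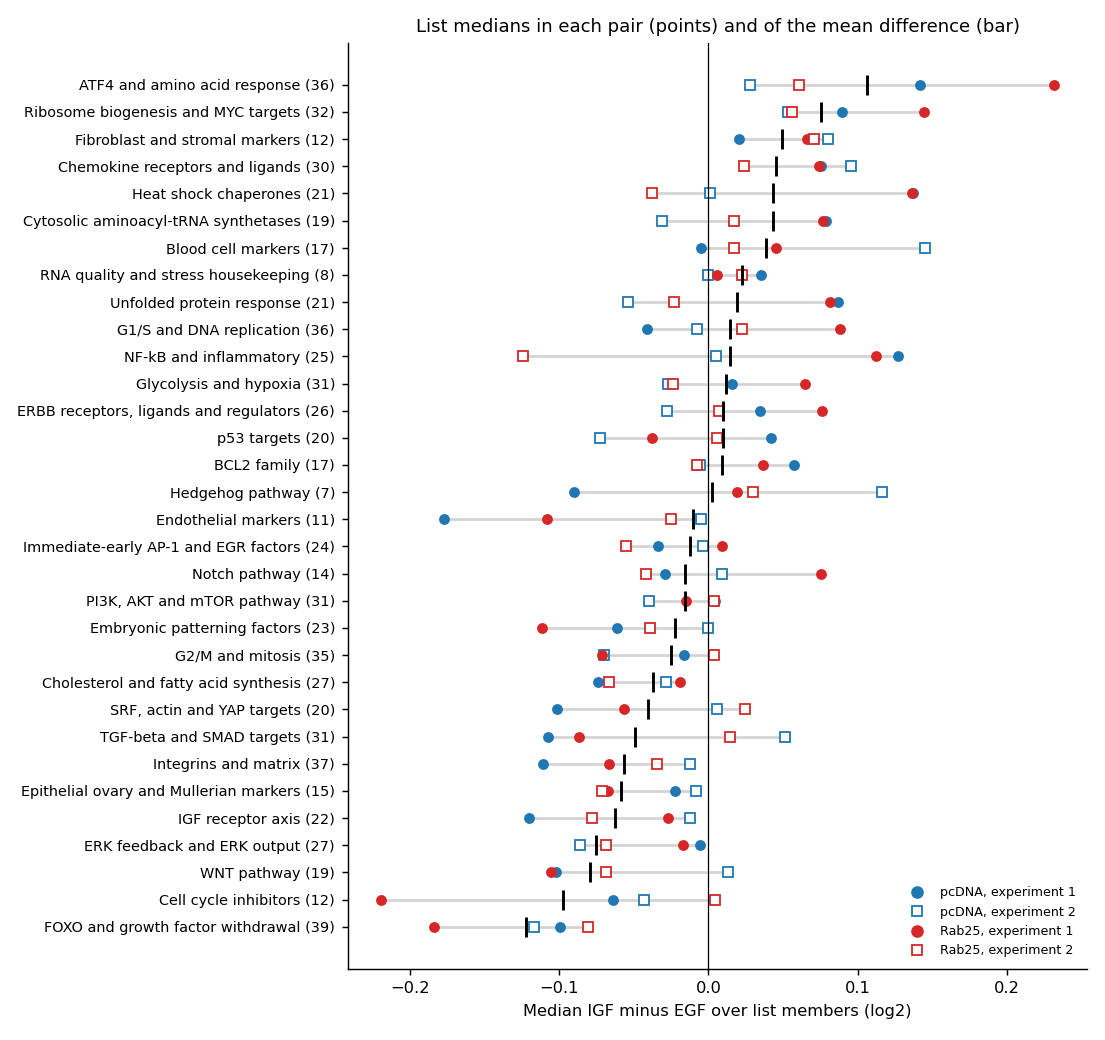
Median IGF minus EGF difference (log2) of 32 gene lists in each pair (points) and of the mean over pairs (black bar), with the number of measured genes in brackets. The FOXO list has the lowest median (-0.12) and the ATF4 list the highest (0.11), each with 1 sign in the 4 pairs.

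The 15 genes of lowest p with a higher level in the IGF array of all 4 pairs, beyond those described, held LCP1, an actin bundler of blood and cancer cells, at 0.56 (SE 0.08). Its level was 7.98, 7.66, 6.57 and 6.80 with EGF and 8.45, 8.35, 7.32 and 7.13 with IGF. PRKAB2, a subunit of the energy sensor AMPK, was 0.41 higher (SE 0.06), TUFT1 0.39 (SE 0.07), SYBU, a kinesin linker, 0.40 (SE 0.08), and the ephrin ligand EFNB2 0.34 (SE 0.07). A second EFNB2 probe set gave 0.52. RIMS2, at 0.32, and CRYBB2, at 0.30, each had a second, dimmer probe set below 0 (-0.09 and -0.13). CXCR5, CALCRL, CALCB and B3GALT1 had differences of 0.34, 0.30, 0.40 and 0.27 at levels between 5.27 and 6.03, close to background.

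The 15 on the lower side held ITGB3, the integrin chain of the vitronectin receptor, at -0.65 (SE 0.09) with -0.81, -0.56, -0.89 and -0.36 in the pairs. Its 6 other probe sets gave -0.07 to 0.05, and the median of its probe sets gave 0.05, so this value rests on the brightest of 7. The retroelement silencing factor RESF1 was at -0.51 (SE 0.08), the calcium channel gene CACNA1A at -0.43 (SE 0.06), with other probe sets at -0.51 and -0.21. RIN2, a RAB5 exchange factor of endocytosis, was bright and even at -0.42 (SE 0.07), with a mean of 12.46 with EGF and 12.04 with IGF. APOLD1 had -0.41 (SE 0.05) with values from -0.36 to -0.50 in the pairs. The phosphatase PTPRE was at -0.36, the regulator ARID5B at -0.33 and the glutaminyl cyclase QPCT at -0.30. MAGED4B, LRRC23, FRMD4A and CLIP2 had differences of -0.35, -0.34, -0.33 and -0.32 at levels between 6.60 and 7.95.

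**Figure D4:**
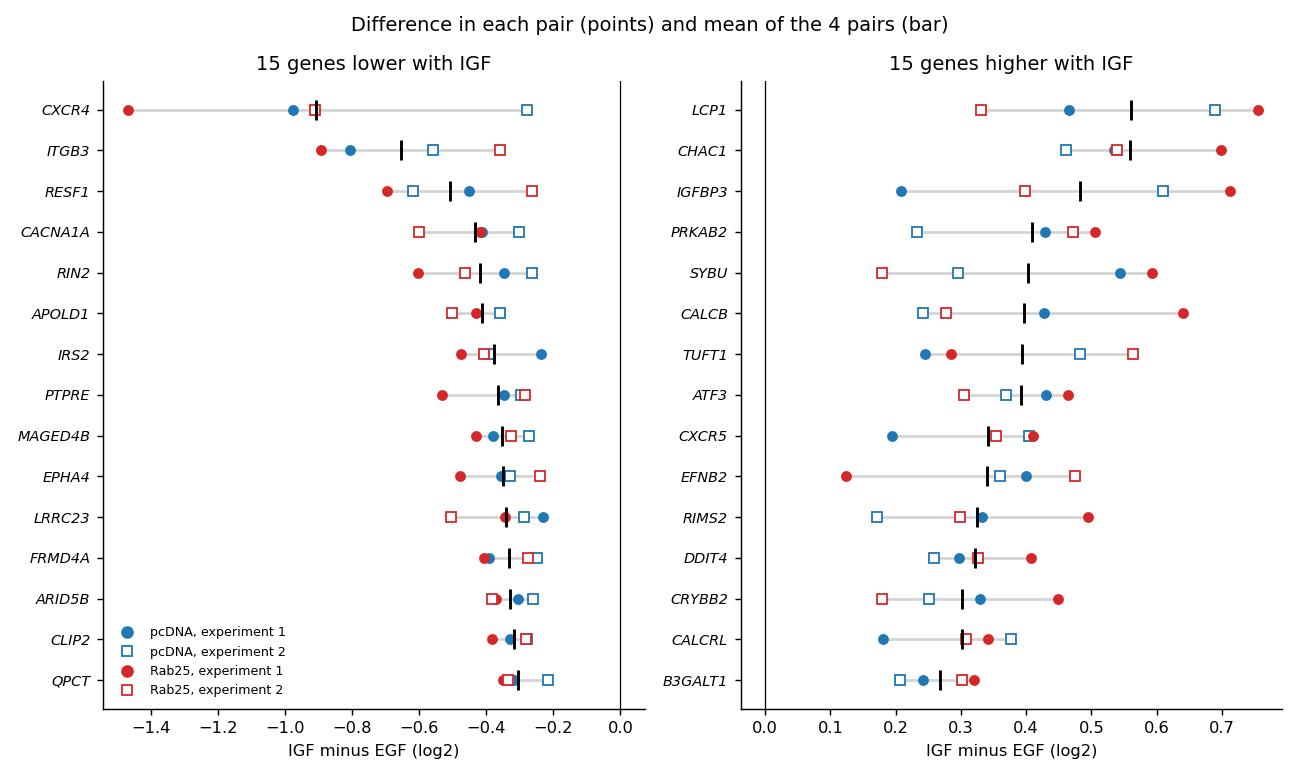
Difference IGF minus EGF (log2) in each pair (points) and mean of the 4 pairs (black bar). Shown are the 15 genes per side of lowest p among those with 1 sign in all 4 pairs. CXCR4 spans -1.47 to -0.28, while the 4 pairs of QPCT and CLIP2 lie close to one another.

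By size alone, chosen after the values were seen, 1 gene differed 2-fold and 5 differed at least 1.5-fold. Leaving out a pair gave 0 genes at 2-fold without pcDNA or Rab25 of experiment 1 and 2 without pcDNA of experiment 2, and centring gave 0. At 1.5-fold it gave 9 without pcDNA of experiment 1, 16 without pcDNA of experiment 2 and 10 without Rab25 of experiment 2. TNFSF15, an endothelial growth inhibitor of the TNF family, had the largest difference at -1.02 (SE 0.19). It was at 10.30 and 8.73 with EGF and 8.59 and 8.44 with IGF in pcDNA cells, and at 7.31 and 6.94 against 6.24 and 5.94 in Rab25 cells. The differences of -1.71, -0.29, -1.07 and -1.0 had 1 sign but varied widely, and starved cells had 7.16 ± 1.68 (SD, n = 8). CXCR4 and ITGB3 were the others with 1 sign. SIGLEC15 (-0.63) and BCL6 (0.67) differed in sign between pairs. Among other lists, PTCH1, the Hedgehog receptor and target, was at -0.49 (SE 0.09) with -0.29, -0.82, -0.37 and -0.45. Its mean level was 6.98 with EGF and 6.49 with IGF, close to background, and its other probe sets gave 0.04 and -0.07. The integrin and matrix list had 2 members higher and 6 lower of 37 at an unadjusted p under 0.05, against 3.67% and 6.24% of all genes. Among the lower was ITGA2 at -0.29 (SE 0.08), and the list median was -0.06. After centring 4 were lower with a median near 0 (-0.0017), and 3 were lower without the Rab25 pair of experiment 1. The 30 chemokine genes had 4 higher and 1 lower (CXCR4), against the same shares of all genes. The higher count was 1 without the Rab25 pair of experiment 1 and 7 after centring. Centring left 1260 of all 11940 genes higher and 291 lower. The 35 mitotic genes had 0 higher and 4 lower, against 3.67% and 6.24% of all genes, and TTK was among the lower at -0.27 (SE 0.07). The lower count was 2 after centring, without the pcDNA pair of experiment 2 or without the Rab25 pair of experiment 1. Of the 36 genes of G1/S and replication, 2 were higher and 1 lower, against the same shares of all genes. The higher ones were CDC25A at 0.27 (SE 0.07) and CDC6 at 0.25 (SE 0.09).

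Whether IGF and EGF differed otherwise in Rab25 than in pcDNA cells was tested with a treatment by line term. By limma 0 of 11940 genes (0%) passed, with a lowest adjusted p near 1 (0.9998), and 376 genes (3.15%) had an unadjusted p under 0.05. The genes of lowest p were PAEP, SOX17, KDM7A and ROR1. SOX17, a transcription factor of endoderm and ovary, was at 8.61 and 8.17 with EGF and at 7.70 and 7.33 with IGF in Rab25 cells, and at 7.47 and 7.34 against 7.34 and 7.15 in pcDNA cells. Its difference was thus -0.91 and -0.84 in Rab25 and -0.12 and -0.19 in pcDNA pairs. The demethylase gene KDM7A had 0.21 and 0.34 in pcDNA and -0.46 and -0.40 in Rab25 pairs, and the receptor ROR1 had -0.41 and -0.18 against 0.50 and 0.42. PAEP, glycodelin, lay at 5.04 to 6.28 in all 8 arrays, close to background.

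Whether the difference of the factors changed between the experiments was tested with a treatment by experiment term. By limma 0 genes (0%) passed, the lowest adjusted p was 0.402, and 1007 genes (8.43%) had an unadjusted p under 0.05, 512 with a higher and 495 with a lower difference in experiment 2. BCL6, a transcriptional repressor and FOXO target, was at 10.80 and 10.74 with EGF and 10.72 and 10.44 with IGF in experiment 1. In experiment 2 it was at 8.47 and 7.85 with EGF and 9.71 and 9.67 with IGF, so it was the EGF arrays of experiment 2 that stood low. The difference was -0.08 and -0.29 in experiment 1 and 1.24 and 1.82 in experiment 2 (term 1.72, SE 0.20, limma, adjusted p = 0.402). In the fit of all 24 arrays the term of BCL6 was the 1 call (0.00838% of genes), with an adjusted p of 0.00253 by limma. A second BCL6 probe set had a mean IGF minus EGF difference of 0.35, beside 0.67 for the main one. The term was not computed for that second probe set.

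The cell cycle inhibitor CDKN1C had -0.61 and -0.60 in experiment 1 and 0.30 and 0.22 in experiment 2, in the order pcDNA and Rab25. FRAT2, a regulator of GSK3 and WNT signalling, had -0.08 and -0.22 in experiment 1 and -0.99 and -1.04 in experiment 2. SPANXA1, a cancer-testis gene with near-identical copies that its probe sets may share, had 0.57 and 0.59 against -0.21 and -0.35. SIGLEC15, lower in experiment 1 by 0.98 and 1.42, was near even in experiment 2 (0.02 and -0.14). In each of these genes the experiments differed in the same direction in the 2 lines. A low p of the term favours such agreement, so for genes picked by it this is no separate result. Exposure and experiment cannot be told apart.

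**Figure D5:**
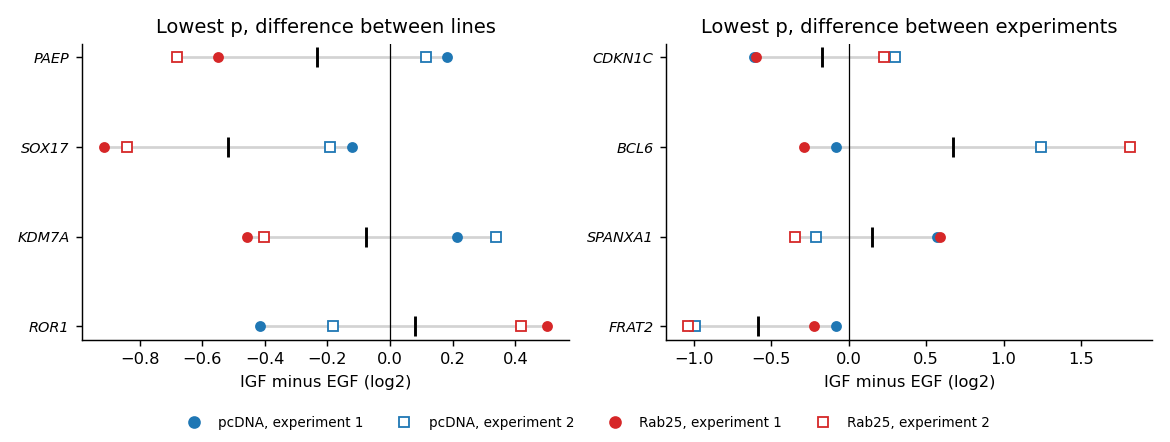
Difference IGF minus EGF (log2) in each pair for the 4 genes of lowest p in the treatment by line term (left) and the treatment by experiment term (right), with the mean of 4 pairs as a black bar. Colours separate on the left, filled and open symbols on the right, and BCL6 spans -0.29 to 1.82.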

How the data were processed

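Total RNA had been labelled and hybridised to 24 HT-HG_U133A arrays. Values deposited by the authors are on a log2 scale, 1 for each probe set, and per the labels MAS5 and RMA were used, with no version or role stated, so the normalization is not known step by step. Of 22930 probe sets 524 were controls, 19415 carried 1 gene symbol, 125 several and 2866 none. Each of 11940 genes was read from its probe set with the highest mean across all 24 arrays.

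The 8 IGF and EGF arrays were fitted by lmFit and eBayes of limma 3.58.1 (R 4.3.3, 2-sided tests) with the 4 pairs of line and experiment as a block, giving 3 residual and 4.73 prior degrees of freedom. Benjamini-Hochberg adjustment ran over all genes at 0.05. Experiment deviations of the 4 groups correlated over genes at 0.717 to 0.835, and across the lines at 0.717 to 0.792. Experiments may also differ in exposure, so these values cannot show that single arrays were matched. The pairs rest on the labels. The arrays are described as independent samples, and no label says that they were separate cultures, so p values measure the spread between these samples.

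The named genes were IRS2, IGF1R, CXCR4 and EGR1, the 15 genes per direction of lowest p with the same sign in all 4 pairs (since none passed the threshold), the 4 members with the smallest p in each described list, and up to 4 genes of lowest p per interaction term. Members of the FOXO, ATF4, ERK and IGF lists named beyond these were chosen after their values were seen. Genes, lists and tests were chosen with earlier results of these data known. Promoters came from RefSeq (GRCh38.p14). Array precision is limited by the number of arrays.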

Additional observations from a re-analysis of the deposited data

How the results depend on the processing

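The count of 0 genes at an adjusted limma p under 0.05 also held in every alternative run for the paired comparison except the trend and robust prior, which gave 17. Those were quantile normalization, centring, the median of probe sets, array weights, dropping the dimmest 40% of genes, each experiment or line alone, each pair left out, and fits of 16 or 24 arrays. At an unadjusted p under 0.05 stood 1183 genes with the pair block and 297 without the replicate block, 443 and 306 in the fits of 24 and 16 arrays, 606 in pcDNA alone, 1551 after centring, and 743 to 1182 when each pair was left out. The treatment by experiment term had 1 call with 24 arrays. The 30 genes followed here were those of lowest p among genes with the same sign in every pair. Settings that leave out or reweight pairs therefore keep their direction by construction. Only another scaling or choice of probe sets could turn it. Of their alternative values, 504 of 505 kept the direction, a count that is for this reason little evidence of stability. The exception was ITGB3 at 0.046 with the median of probe sets, and KLF9 turned to 0.0214 there. EGR1 turned to 0.0123 with quantile normalization, 0.0456 with centring, 0.0722 in experiment 2 alone and 0.1516 in Rab25 alone, and ranged from -0.1823 to 0.1086 when each pair was left out. Genes chosen for a difference between lines or experiments turned where 1 side stood alone: in pcDNA alone PAEP was at 0.1478, KDM7A at 0.2763 and ROR1 at -0.2986, in experiment 2 alone CDKN1C at 0.2624 and SPANXA1 at -0.2785, and in experiment 1 alone BCL6 at -0.1869. With each pair left out KDM7A ranged from -0.2148 to 0.0503 and ROR1 from -0.0595 to 0.2454. The cause of these changes was not tested beyond the samples or probe sets each setting leaves out. Low signal limits, among others, CXCR5, CALCRL, CALCB, B3GALT1, PAEP, FOS, PTCH1, LRRC23, CDKN1C, ERBB3, IRS4 and EGR1 in pcDNA cells.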
